A study of Mus musculus with 6 samples.

Results

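The Ms4a genes encode small proteins that cross the membrane several times, and the 7 described here, Ms4a3, Ms4a4c, Ms4a6b, Ms4a6c, Ms4a6d, Ms4a7 and Ms4a8a, are known from monocytes, macrophages and granulocyte progenitors. They were taken by symbol from a deposited table of read counts, where each has 1 row, and make up 7 of the 16190 genes with enough counts for a test in the 5 deeper of its 6 libraries. The set was chosen by its higher counts in one group, so the difference between the groups is described below and is not a test of these genes. The table holds RNA sequencing of 6 samples that the labels call MSC of the bone marrow, the stromal cells from which bone and fat form, from mice on a C57BL/6 background. In 3 of them Hes1, a repressor downstream of Notch, was deleted (Hes1 KO), and the other 3 are labelled wild type (WT). The libraries are called KO1 to KO3 and WT1 to WT3 by their replicate numbers, and values are given in that order. Floxed Hes1 mice had been crossed with the Prx1Cre line, which is active in the mesenchyme of the early limb bud and in part of that of the skull and face. The labels speak of knockout animals and of heterozygous floxed mice, and the number of deleted alleles, the ages, the Cre and flox status of the WT animals, and whether each library is a separate animal or culture were not given in the sources used here. Spread between libraries may therefore be technical.

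Members of this family sit in one gene cluster and share a layout of 4 membrane spans. The best known are Ms4a1, the B cell antigen CD20, and Ms4a2, the beta chain of the high-affinity IgE receptor of mast cells and basophils. Ms4a3 marks granulocyte-monocyte progenitors and binds the cell cycle phosphatase Cdkn3, while members of the Ms4a4 and Ms4a6 subgroups are found on macrophages, where they associate with other surface receptors.

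The depth differed widely between the groups. Knockout libraries held 20563116 to 22131465 counts, WT2 held 5812598 and WT3 held 12109170, whereas WT1 held 66167, so that 1 count there makes 15.1 CPM, counts per 1000000 counts of the library. In WT3 the 10 most abundant genes took 50.03% of counts and erythroid markers 42.4%. Hes1 itself was at 8.36, 10.4 and 12.4 CPM in the knockout and at 53.3 and 28.5 CPM in WT2 and WT3, with 0 counts in WT1. Its log2 fold change was -2.55 (SE 0.31, edgeR adjusted p = 0.0294) over the 5 deeper libraries and -2.12 (SE 1.01, edgeR adjusted p = 0.364) over all 6. Markers of the labelled cell type were scarce in both groups: 9 stromal genes summed to 13.04 to 26.7 CPM in the knockout and 3.799 to 36.1 CPM in WT, and Prrx1 had 2, 0 and 1 counts in the knockout and 0, 1 and 0 in WT. Because WT1 stands apart, its counts are given separately and each comparison was fitted with all 6 libraries and with the 5 others.

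In the RefSeq annotation of GRCm38.p6, an older build than the GRCm39 named in the submitters' processing notes, the cluster on chromosome 19 holds 21 Ms4a genes, of which 16 have a row in the table. From one end it runs with Ms4a8a near the start, Ms4a7 in the middle, then Ms4a4c, Ms4a6c, Ms4a6b and Ms4a6d with Ms4a4a, Ms4a4b and Ms4a4d between or before them, and ends with Ms4a2 and Ms4a3. RefSeq promoter windows were matched for 6 of the 7 genes, and Ms4a6d had none. The 250 bases before the start of Ms4a6b and Ms4a6c are shown first, because these related genes share sequence there. Capitals mark the 2 runs of at least 20 bases that both windows hold, of 24 and 48 bases. The windows are chr19:11518309-11518558 and chr19:11469118-11469367, both on the plus strand of GRCm38.p6.
Ms4a6b: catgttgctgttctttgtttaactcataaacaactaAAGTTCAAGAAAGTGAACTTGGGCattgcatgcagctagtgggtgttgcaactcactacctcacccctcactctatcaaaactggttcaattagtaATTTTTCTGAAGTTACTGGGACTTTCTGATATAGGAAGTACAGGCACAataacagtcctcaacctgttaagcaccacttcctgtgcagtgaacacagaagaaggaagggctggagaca
Ms4a6c: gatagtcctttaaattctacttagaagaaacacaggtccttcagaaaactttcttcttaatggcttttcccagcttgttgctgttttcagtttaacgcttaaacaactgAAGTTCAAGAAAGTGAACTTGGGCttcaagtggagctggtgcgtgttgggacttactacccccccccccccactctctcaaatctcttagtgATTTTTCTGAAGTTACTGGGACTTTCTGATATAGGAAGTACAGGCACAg

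The windows of Ms4a4c, Ms4a3 and Ms4a8a are shown for 3 genes whose levels followed different courses across the libraries. They are chr19:11407411-11407660 on the plus strand for Ms4a4c, and chr19:11640852-11641101 and chr19:11081104-11081353 on the minus strand for Ms4a3 and Ms4a8a (GRCm38.p6). Capitals mark GAGGAA, a core of PU.1 sites, and TGTGGT, a core of RUNX sites, in Ms4a4c, TGGGAA, the core of RBPJ sites, in Ms4a3, and GGAAA, the core of NFAT sites, in Ms4a8a, each on either strand.
Ms4a4c: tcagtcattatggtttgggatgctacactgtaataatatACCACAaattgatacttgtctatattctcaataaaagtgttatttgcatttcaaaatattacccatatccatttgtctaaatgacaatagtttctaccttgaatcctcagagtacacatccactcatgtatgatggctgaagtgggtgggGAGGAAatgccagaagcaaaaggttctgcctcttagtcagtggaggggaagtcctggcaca
Ms4a3: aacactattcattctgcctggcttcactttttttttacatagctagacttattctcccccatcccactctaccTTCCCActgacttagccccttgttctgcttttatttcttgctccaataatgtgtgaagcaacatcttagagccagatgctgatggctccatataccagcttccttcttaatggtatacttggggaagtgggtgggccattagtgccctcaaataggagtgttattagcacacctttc
Ms4a8a: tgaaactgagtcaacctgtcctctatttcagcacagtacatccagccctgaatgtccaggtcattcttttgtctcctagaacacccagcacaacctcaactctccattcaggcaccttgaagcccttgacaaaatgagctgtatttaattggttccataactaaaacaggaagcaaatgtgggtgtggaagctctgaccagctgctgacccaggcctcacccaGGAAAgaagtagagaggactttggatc

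Ms4a7 has 2 windows, so the 6 genes have 7. GAGGAA was in 1 of the 7, against 23.25% of all 32851 windows of this length, and the C/EBP core TTGCNNAA was in 0 of 7, against 9.564%. TGTGGT was in 1 (14.05% of all), TGGGAA in 2 (21.59%) and GGAAA in 4 (55.57%). Of the motifs that Hes1 binds, CACGNG was in 1 window (23.51% of all) and CACNAG in 4 (36.67%). The CACGNG match, in Ms4a7, is the same 6 bases as 1 of the CACNAG matches. The GGAAA and TGGGAA matches in Ms4a6c overlap by 4 bases, and the GAGGAA and GGAAA matches in Ms4a4c overlap too. Matches were sought on both strands.

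Shared sequence limits what the counts can tell apart, mainly for Ms4a6c and less between the Ms4a genes themselves. Of all stretches of 50 bases in the protein-coding transcripts of Ms4a6c (GENCODE M21), 56.9% also occur in another gene, mostly in BE692007, a transcript of the opposite strand that overlaps 53.1% of the exon bases of Ms4a6c. The sources used here do not give the strand setting of the counting, so over the shared bases reads of Ms4a6c and BE692007 may not be told apart. BE692007 had 191, 105 and 127 counts in the knockout and 0, 103 and 61 in WT. For Ms4a4c the shared part was 8.19%, mainly with Ms4a4b, for Ms4a6b 5.89%, for Ms4a6d 2.69%, and it was 0 for Ms4a3, Ms4a7 and Ms4a8a.

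All 7 genes had higher CPM in each knockout library than in WT2 and WT3, as did 35.1% of all genes tested, and in WT1 the CPM of 4 of them lay above every knockout library. Among those 4, only Ms4a6c had a WT1 interval for counting error that lay wholly above the knockout values. Every one of the 5 deep libraries had counts of all 7 genes. Their levels are given next in the order of the cell types in which the genes are known, from the progenitor gene to those of monocytes and macrophages.

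Ms4a3, the gene of granulocyte-monocyte progenitors, had 5013, 2133 and 3923 counts in the knockout, or 227, 101 and 191 CPM. In WT it had 431 counts (74.1 CPM) in replicate 2, 12 counts (0.991 CPM) in replicate 3 and 0 in replicate 1, where the Wilson 95% interval reaches 58.1 CPM. WT2 lay close under the lowest knockout library, and both WT libraries differed 74.8-fold from each other (95% counting interval 42.4 to 146). This gene thus varied more within WT than between the group means, 173 ± 64.8 CPM in the knockout (SD, n = 3) and 37.6 CPM over WT2 and WT3.

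Ms4a6c was the most abundant of the 7, with 15200, 11179 and 10334 counts in the knockout (687, 528 and 503 CPM). It had 859 counts (148 CPM) in WT2 and 276 (22.8 CPM) in WT3. WT1 had 101 counts, which make 1526 CPM (Wilson 95% interval 1257 to 1854), above every knockout library. Its position therefore depends on that shallow library, without which the mean in the knockout was 6.71-fold that in WT.

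Ms4a6b, a relative of Ms4a6c that is also known from T cells, had 3045, 2887 and 2036 counts in the knockout (138, 136 and 99.0 CPM). It had 114 counts (19.6 CPM) in WT2, 94 (7.76 CPM) in replicate 3 and 3 (45.3 CPM, interval 15.4 to 133) in replicate 1. All the knockout values lay above all WT values, although the interval of WT1 reaches into the knockout range. The mean in the knockout, 124 ± 21.9 CPM (SD, n = 3), was 9.08-fold that of WT2 and WT3.

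Ms4a4c had 2782, 2659 and 1685 counts in the knockout (126, 126 and 81.9 CPM) and 64 (11.01 CPM) and 29 (2.39 CPM) in WT2 and WT3. Ms4a6d, a surface protein of macrophages, had 602, 611 and 444 counts (27.2, 28.9 and 21.6 CPM) and 16 (2.75 CPM) and 4 (0.330 CPM). For both genes every knockout library lay above WT2 and WT3 without overlap, and the knockout mean was 16.6-fold (Ms4a4c) and 16.8-fold (Ms4a6d) that of WT2 and WT3. WT1, with 9 and 3 counts (136 and 45.3 CPM), lay above every knockout library for both. Its Wilson intervals, 71.6 to 259 CPM for Ms4a4c and 15.4 to 133 CPM for Ms4a6d, held all the knockout values. The position of WT1 is therefore not resolved for either gene.

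Ms4a8a, known from alternatively activated and tumour-associated macrophages, had 160, 291 and 204 counts in the knockout (7.23, 13.7 and 9.92 CPM) and 2 and 1 counts in WT2 and WT3. Pooled over libraries the ratio was 61.3 with a 95% counting interval of 20.9 to 298, wide because it rests on 3 WT counts. The 2 counts of WT1 make 30.2 CPM (interval 8.29 to 110). Ms4a7, a gene of tissue macrophages, was nearly absent, with 14, 17 and 7 counts in the knockout and 0, 1 and 1 in WT1, WT2 and WT3. Its pooled ratio of 5.33 has an interval of 1.38 to 45.6. These intervals cover counting error only, not the spread between libraries.

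**Figure D1:**
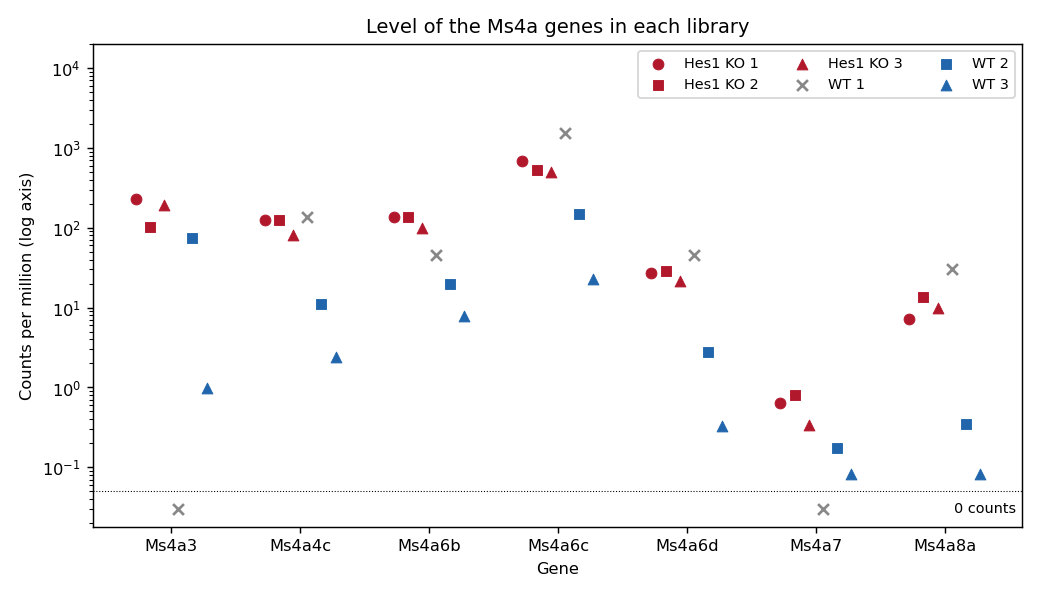
CPM (log axis) of the 7 Ms4a genes in each of the 6 libraries; red symbols are knockout libraries, blue symbols WT2 and WT3, and grey crosses WT1, with libraries at 0 counts drawn under the dotted line. The red symbols lie above the blue ones for each gene, while the grey cross lies above them for Ms4a4c, Ms4a6c, Ms4a6d and Ms4a8a.

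Levels can be compared between genes only per length, here as CPM per kilobase of exon (GENCODE M21). In the knockout Ms4a6c stood at 245 to 335, Ms4a3 at 53.5 to 120, Ms4a4c at 46.8 to 71.8, Ms4a6b at 22.1 to 30.7, Ms4a6d at 12.4 to 16.6, Ms4a8a at 4.03 to 7.66 and Ms4a7 at 0.0764 to 0.180. Neighbours in this order were separated in every knockout library except Ms4a3 and Ms4a4c, whose ranges overlap and which changed places in KO2. WT2 kept the order Ms4a6c, Ms4a3, Ms4a4c, Ms4a6b, Ms4a6d, Ms4a8a, Ms4a7, with 72.1 for Ms4a6c and 39.4 for Ms4a3. In WT3, Ms4a6c led with 11.1 and Ms4a6b followed with 1.73, ahead of Ms4a4c (1.37) and Ms4a3 (0.526).

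The share of Ms4a6c in the counts of the 7 genes was steadier than their sum, whereas the share of Ms4a3 varied widely. The 7 genes summed to 1212, 934 and 906 CPM in the knockout, and to 1783, 256 and 34.4 CPM in WT1, WT2 and WT3. Ms4a6c made up 55.5% to 56.7% of these counts in the knockout, 57.8% in WT2 (Wilson 95% interval 55.2% to 60.3%) and 66.2% in WT3 (61.5% to 70.6%). Ms4a3 made up 10.8% to 21.1% in the knockout, 29.0% in WT2 and 2.88% in WT3. Ms4a4c held 9.04% to 13.4% in the knockout, and 4.30% and 6.95% in WT2 and WT3, and Ms4a6b 10.9% to 14.6%, against 7.67% and 22.5%. In WT1, 85.6% of the 118 counts were of Ms4a6c (78.1% to 90.8%).

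**Figure D2:**
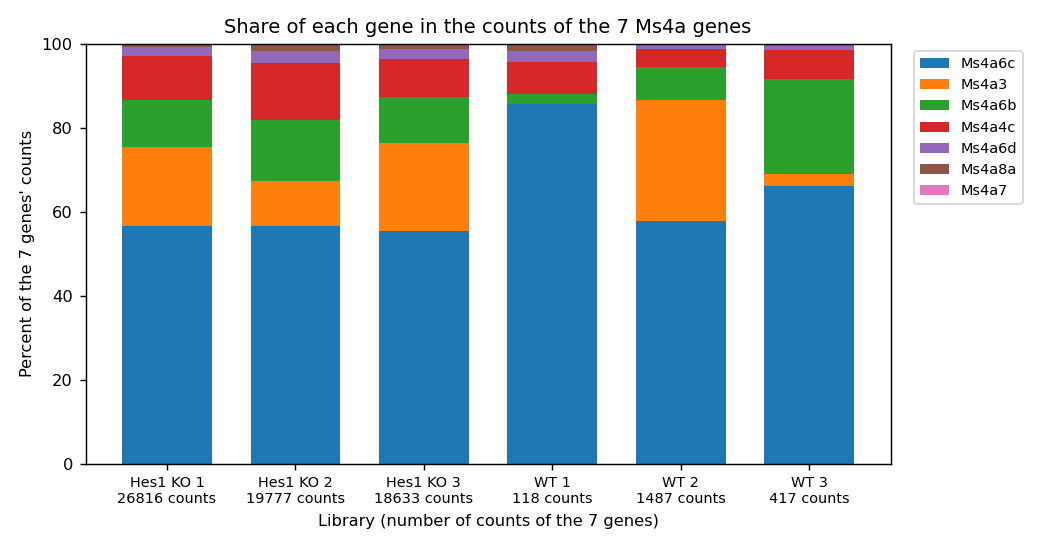
Stacked bars give the percent of the 7 genes' counts that each gene took in each library, with the number of these counts under each bar. Ms4a6c took 55.5% to 66.2% in the 5 deeper libraries and 85.6% in WT1, while the share of Ms4a3 ran from 0 to 29.0%.

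Fold changes were taken from edgeR's quasi-likelihood fit of all genes, with libraries scaled by TMM, a factor that corrects for a few genes taking many reads. In the fit of the 5 libraries all 7 genes had higher levels in the knockout. The log2 fold changes were 5.28 (SE 0.54) for Ms4a8a, 3.98 (SE 0.53) for Ms4a6d, 3.81 (SE 0.38) for Ms4a4c, 2.74 (SE 0.29) for Ms4a6b, 2.60 (SE 0.43) for Ms4a6c, 2.33 (SE 1.17) for Ms4a3 and 1.70 (SE 0.67) for Ms4a7. Their median was 2.74, against 0.02 over all 16190 genes tested. Of the 7, 5 had an adjusted p under 0.05, all but Ms4a3 and Ms4a7, where 15.5% of all genes passed in either direction and 7.44% passed as higher in the knockout. All 7 kept the 3 knockout libraries above both WT libraries in CPM, as did 35.1% of all genes tested. By DESeq2 the same number passed, against 30.9% of all genes, and 3 (Ms4a8a, Ms4a6d and Ms4a4c) had a log2 fold change of at least 3, against 1.75%. Since the genes were chosen with this contrast known, nothing is drawn from these counts.

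With all 6 libraries, 6 genes entered the fit and Ms4a7 was filtered out as too low. Their log2 fold changes were 2.74 (SE 2.35) for Ms4a8a, 2.69 (SE 1.27) for Ms4a3, 2.48 (SE 0.41) for Ms4a6b, 2.08 (SE 1.60) for Ms4a6d, 1.85 (SE 1.03) for Ms4a4c and 0.48 (SE 0.95) for Ms4a6c. The standard error of Ms4a6b was the smallest of the 6, and Ms4a6c dropped furthest toward 0 in comparison with the 5 libraries apart from Ms4a8a. None of the 6 passed in edgeR, where 0% of 14756 genes did and 1 of the 6 (Ms4a6b) and 2200 of all genes had an unadjusted p under 0.05. DESeq2 called 1 of them, Ms4a6b, and 5.51% of all genes. In CPM, 3 of the 7 genes (Ms4a3, Ms4a6b and Ms4a7) kept every knockout library above every WT library, as did 24.7% of the genes tested.

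Single WT libraries decided the size for Ms4a3. Its log2 fold change was 6.01 without WT2 and 1.42 without WT3, each setting the knockout libraries against 1 WT library that is assumed to vary like them. For the 5 genes that passed, the same omissions gave 2.61 and 2.92 for Ms4a6b, 3.24 and 2.19 for Ms4a6c, 4.14 and 3.60 for Ms4a4c, 4.89 and 3.49 for Ms4a6d, and 5.54 and 5.15 for Ms4a8a. Their calls were lost when any 1 knockout library was left out, as were those of all other genes, and when libraries were scaled by size alone. The fold changes themselves stayed near their values: in these 4 settings Ms4a4c ran from 3.51 to 4.06, Ms4a6b from 2.45 to 3.18, Ms4a6c from 2.46 to 2.74, Ms4a6d from 3.69 to 4.11 and Ms4a8a from 4.80 to 5.70.

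**Figure D3:**
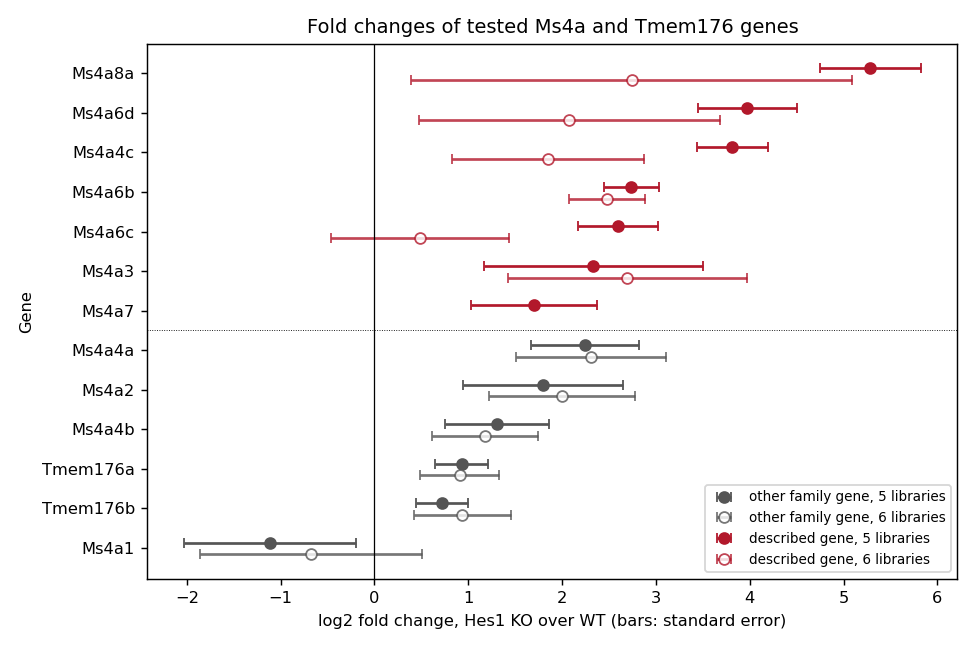
The log2 fold change of the knockout over WT with its standard error is plotted for each tested Ms4a and Tmem176 gene, filled points from 5 libraries and open points from all 6; the 7 described genes are red and other family genes grey. Red filled points run from 1.70 to 5.28, and open points lie nearer 0 for Ms4a8a, Ms4a6d, Ms4a4c, Ms4a6c and, by less, Ms4a6b, and further from 0 for Ms4a3.

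The rest of the family did not pass in either fit. Of 11 other genes, 9 Ms4a genes and the related membrane proteins Tmem176a and Tmem176b, 6 had enough counts to be tested. In the 5-library fit 5 of these 6 had higher and 1 lower levels in the knockout and 0 passed (edgeR with Benjamini-Hochberg adjustment). Of the 6, 3 had an unadjusted p under 0.05, as did 6442 of all 16190 genes tested. Ms4a4a, a macrophage surface protein, had 256, 271 and 231 counts in the knockout and 0, 26 and 5 in WT1, WT2 and WT3, with a log2 fold change of 2.25 (SE 0.57, edgeR adjusted p = 0.053). Ms4a2, the IgE receptor chain, had 2534, 2089 and 1597 counts against 1, 37 and 230 (1.80, SE 0.85, edgeR adjusted p = 0.173). Ms4a4b, known from T cells, had 433, 520 and 278 against 1, 27 and 54 (1.31, SE 0.56, edgeR adjusted p = 0.14). Tmem176a and Tmem176b had log2 fold changes of 0.93 (SE 0.28, edgeR adjusted p = 0.0746) and 0.72 (SE 0.28, edgeR adjusted p = 0.117).

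Ms4a1, which encodes CD20 of B cells, was the 1 tested family gene with a negative fold change in the knockout after TMM scaling. By CPM alone its mean was not lower, at 28.7 in the knockout and 26.5 over WT2 and WT3. TMM gave WT3 a factor of 0.445, the lowest of the 5 libraries. It had 489, 472 and 856 counts in the knockout (22.1, 22.3 and 41.6 CPM) and 0, 57 and 522 in WT (0, 9.81 and 43.1 CPM), so the groups overlapped (log2 fold change -1.11, SE 0.92, edgeR adjusted p = 0.399). Ms4a4d had 10, 10 and 5 counts in the knockout and 0 in every WT library, a level at least 2.34-fold higher than 3 counts over WT2 and WT3 would give. Ms4a12, Ms4a14, Ms4a15 and Ms4a20 had at most 4 counts in any library. Among neighbours in the cluster that are no Ms4a genes by name, AW112010, BE692007 and Gm8369 had log2 fold changes of -0.48, -1.14 and -1.33 (edgeR adjusted p = 0.616, 0.0512 and 0.0557), so genes within the same cluster had fold changes of both signs.

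Genes that work with Ms4a proteins were described from a list chosen with earlier results known. Of 6 tested, all had higher levels in the 5-library fit and 3 passed, with a median log2 fold change of 2.67, where 7.44% of all genes passed as higher. Tyrobp, the adaptor of the microglial and macrophage receptor Trem2, rose by 3.18 (SE 0.60, edgeR adjusted p = 0.0332), Fcer1g, the signalling chain shared by Fc receptors, by 2.47 (SE 0.51, edgeR adjusted p = 0.0382) and Cdkn3, the phosphatase bound by Ms4a3, by 1.53 (SE 0.28, edgeR adjusted p = 0.0322). Trem2 had 353, 420 and 276 counts in the knockout and 0, 19 and 0 in WT (3.50, SE 1.36, edgeR adjusted p = 0.116). Clec7a, the beta-glucan receptor Dectin-1, which associates with Ms4a4a, had a value of 2.87 (SE 1.05, edgeR adjusted p = 0.105), and Tnfrsf18, a receptor of T cells, one of 0.89 (SE 0.77, edgeR adjusted p = 0.415). With all 6 libraries none of the 6 passed.

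Among 8 transcription factors of myeloid cells, 6 had higher levels in the 5-library fit and 3 of them passed, where 7.44% of all genes passed as higher. The 3 were Spi1, which encodes PU.1 (2.004, SE 0.35), Cebpa (2.11, SE 0.23) and Klf4 of monocytes (1.20, SE 0.26), with edgeR adjusted p of 0.0311, 0.0294 and 0.0401. Cebpb, Cebpe and Irf8 had log2 fold changes of 2.48, 2.90 and 1.06 and did not pass (edgeR adjusted p = 0.0627, 0.117 and 0.105). Runx1 and Gfi1 had values of -0.31 and -0.14 and did not pass (edgeR adjusted p = 0.307 and 0.69). None of the 8 passed with all 6 libraries.

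Marker lists of the cell types in the libraries were summed beside the 7 genes, and their part in the result was not tested. Bulk libraries cannot tell fewer cells of a type from less RNA per cell. All 10 macrophage markers tested had higher levels in the knockout in the 5-library fit and 6 passed as higher, where 7.44% of all genes did, with a median log2 fold change of 2.76. Their list of 14 summed to 1829, 1415 and 1498 CPM in the knockout and to 3159, 355 and 118 CPM in WT1, WT2 and WT3, where 10, 4 and 2 of the 14 were at 0 counts. Among them Cd163 had 224, 70 and 148 counts in the knockout and 2, 34 and 14 in WT. In CPM these make 10.1, 3.31 and 7.20 against 30.2, 5.85 and 1.16, so its groups overlapped. Its log2 fold change in that fit was 0.71 (SE 0.49, edgeR adjusted p = 0.322). C1qa had 7, 14 and 11 counts against 0, 1 and 1. C1qb, C1qc and Vsig4 had too few counts for a test, and in CPM WT2 or WT3 lay above their lowest knockout library. Of the 14, 10 had every knockout library above WT2 and WT3 in CPM, as did 35.1% of all genes tested. The 10 monocyte markers all had higher levels in that fit, with a median of 2.67, and 4 passed (Ccr2, Cx3cr1, Klf4 and Ctss). With all 6 libraries 7 were higher and 3 lower. They summed to 14767, 24445 and 15014 CPM in the knockout and to 14947, 3293 and 243 CPM in WT, with 1, 0 and 0 at 0 counts.

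The sum of the 7 Ms4a genes divided by that of the macrophage markers was 0.662, 0.660 and 0.605 in the knockout, 0.565 in WT1, 0.720 in WT2 and 0.293 in WT3, so the groups overlapped on this scale. One gene, Mpeg1, which encodes the pore-forming protein perforin-2, made up 81.3% to 90.0% of the marker sum. Without it the ratios were 5.10, 3.53 and 4.21 in the knockout and 5.62, 5.45 and 2.71 in WT1, WT2 and WT3, and the groups again overlapped. Divided by the monocyte markers the Ms4a sum gave 0.0821, 0.0382 and 0.0604 in the knockout and 0.119, 0.0777 and 0.142 in WT1, WT2 and WT3. Lyz2, the lysozyme gene that neutrophils express too, held 54.0% to 75.0% of that marker sum in the knockout and 3.34%, 48.5% and 21.1% in WT1, WT2 and WT3. Without Lyz2 the ratios were 0.178, 0.153 and 0.162 in the knockout and 0.123, 0.151 and 0.179 in WT. WT1 thus lay above every knockout library with Lyz2 and under every one without it. The omission of both genes was chosen after seeing the data.

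Most other lists of white blood cells also had higher levels in the knockout over the 5 libraries. Of all 16190 genes tested there, 8212 were higher and 7.44% passed as higher. All 11 mature neutrophil markers were higher, with a median log2 fold change of 4.06 and 1 that passed. They summed to 44443, 131153 and 55926 CPM in the knockout and to 5063, 13139 and 334 CPM in WT. Of 7 markers of granulocyte-monocyte progenitors 6 were higher and 0 passed, with a median of 2.25. Their sum was 6092, 2475 and 5386 CPM in the knockout and 6907, 2713 and 52.8 CPM in WT, so the groups overlapped. All 7 dendritic cell markers were higher and 3 passed, with a median of 0.85 and sums of 370, 223 and 315 CPM against 605, 109 and 83.3 CPM. Of 6 mast cell and basophil markers 5 were higher and 1 passed (median 2.05), with 1417 to 2210 CPM in the knockout and 1224, 260 and 293 CPM in WT. Of 6 T cell markers 5 were higher and 0 passed (median 1.03), at 37.7 to 40.2 CPM against 15.7 to 30.2 CPM.

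The B cell and erythroid lists had the opposite sign. All 7 B cell markers had lower levels in the knockout in the 5-library fit and 2 passed (median -1.81). Of all 16190 genes tested, 7978 were lower and 1309 passed as lower. The 7 markers summed to 776, 788 and 1351 CPM in the knockout and to 181, 4816 and 2303 CPM in WT1, WT2 and WT3. All 9 erythroid markers were lower and 0 passed (median -9.07), with WT3 far above the other libraries. None of the lists had a gene that passed with all 6 libraries. Trem2 and Vsig4 stand both in the macrophage list and among the partner genes, and Klf4, Cebpe and Gfi1 both in a marker list and among the transcription factors.

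**Figure D4:**
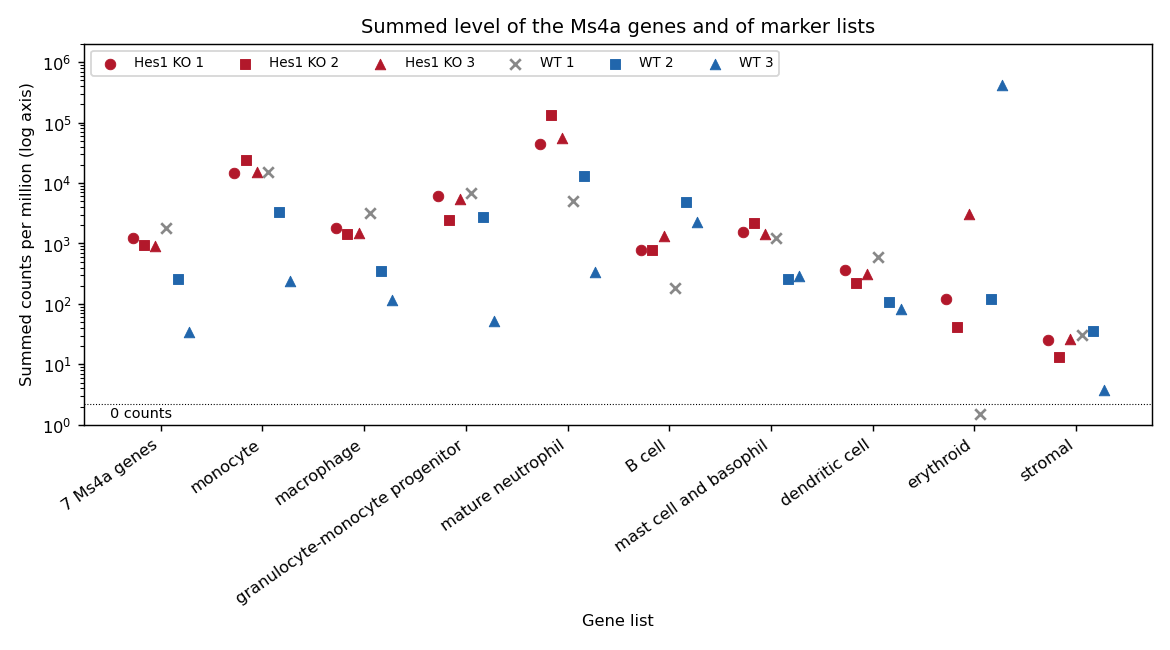
Summed CPM (log axis) of the 7 Ms4a genes and of 9 marker lists in each library, with the same symbols as for the single genes. WT1 is highest and WT3 lowest for the Ms4a sum and for the macrophage, progenitor and dendritic lists, while the B cell list is higher in WT2 and WT3 than in the knockout.

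The course of each gene across the 5 libraries was compared with that of 10291 genes at a mean of at least 5 CPM. Likeness was the root mean square difference of log2(CPM + 0.5) after each gene was centred on its mean, so 0 means the same course, and it is given without a test. Ms4a3 lay nearest to Prtn3 (0.17), Ctsg (0.20) and Elane (0.29), the serine proteases of the primary granules of promyelocytes, against a median of 2.07 over all genes. Its distance to the nearest of the other Ms4a genes described, Ms4a6c, was 1.05. These genes were picked for their likeness, so ratios to them describe the choice. Counts of Ms4a3 per count of Prtn3 were 0.315, 0.381 and 0.321 in the knockout, 0.322 in WT2 and 0.190 (95% counting interval 0.0935 to 0.357) in WT3. Per count of Mpo, the myeloperoxidase gene of the same granules, which the rule did not pick, they were 0.0644, 0.0960 and 0.0625 in the knockout, 0.0419 (0.0380 to 0.0461) in WT2 and 0.0391 (0.0200 to 0.0693) in WT3. On that scale both WT values lay under every knockout library, with the interval of WT3 reaching into the knockout range.

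Ms4a6d and Ms4a4c had the most alike courses of any pair among the 7 (0.15), and both lay near Vcan, a matrix proteoglycan made by monocytes (0.09 and 0.19), and Il13ra1, a receptor chain for interleukin 13 (0.11 and 0.20). Ms4a6d had 0.216, 0.230 and 0.264 counts per count of Ms4a4c in the knockout, and 0.25 and 0.138 in WT2 and WT3, with intervals of 0.135 to 0.438 and 0.0352 to 0.393. The third-nearest genes were Naaa, a lysosomal amidase, for Ms4a6d (0.17) and the lectin receptor Clec4a3 for Ms4a4c (0.21).

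Ms4a6b lay nearest to Fam71a (0.06), the cysteine protease inhibitor Cst3 (0.10) and the histone gene H2ac24 (0.12), and Ms4a6c to Klrb1f (0.10), the histamine-degrading enzyme Hnmt (0.12) and Ugt1a7c (0.12). Ms4a8a lay nearest to Cd52, a surface glycoprotein of leukocytes (0.22), the keratin gene Krt80 (0.23) and Galnt9 (0.25). For Ms4a7 the rule gave Clec2d (0.13), Irf9 (0.14) and Csf1 (0.14), but with 1 count in each of WT2 and WT3 its course is set largely by the added 0.5. Ms4a8a, at 0.344 and 0.0826 CPM in WT2 and WT3, lay under the added 0.5 in both, so its course depends on that value too. In WT3 the added 0.5 also exceeded the CPM of Ms4a6d (0.330) and of the near genes Fam71a and Hnmt (0.165 each), Clec4a3 (0.413) and Galnt9 (0.495). All genes share the same 5 libraries and their split into groups, and 145 genes lay nearer to Ms4a6c than did any other of the 7.

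**Figure D5:**
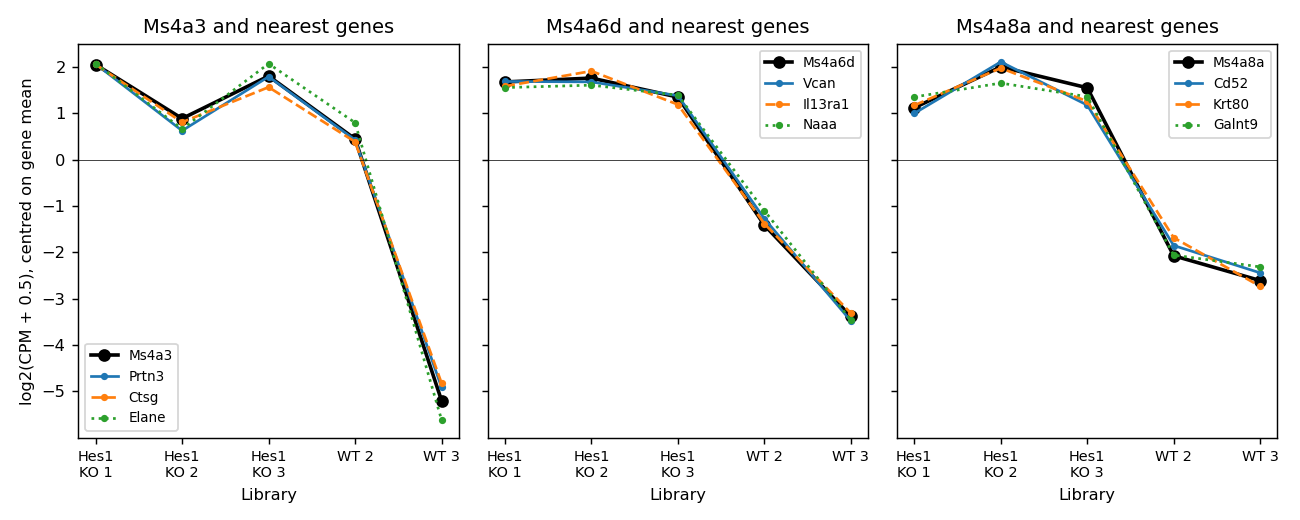
Lines give log2(CPM + 0.5), centred on each gene's mean, across the 5 libraries for Ms4a3, Ms4a6d and Ms4a8a (black) and their 3 nearest genes. WT2 stays close to KO2 for Ms4a3, Prtn3, Ctsg and Elane, whereas it lies with WT3 well under the knockout for Ms4a6d and Ms4a8a.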

How the data were processed

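Per the name of the deposited table, the authors counted reads per gene with featureCounts, and the values are raw counts. The submitters' processing notes name GRCm39, edgeR and limma. Aligner, annotation, strand setting and program versions were not given in the sources used here. Genes, marker lists and tests were chosen with earlier results of these data known.

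CPM is the count per 1000000 counts of the library. Hes1 KO and WT were compared with edgeR 4.0.16 (quasi-likelihood, legacy option off, TMM, filterByExpr) in R 4.3.3, with Benjamini-Hochberg adjustment over all tested genes and a threshold of 0.05, in 6 libraries and without WT replicate 1. A standard error is the fold change divided by the root of F. The fit was tested on simulated data with 200 changed genes, drawn with the same spread for every gene and library. In these data the spread differed between genes and libraries, so that test does not show how the fit behaves here. DESeq2 1.42.0, limma 3.58.1 (voom), other scalings, no filter, a replicate block and leaving out each library were the alternatives. Low-count ratios have exact binomial 95% intervals and shares Wilson intervals, for counting error only.

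Exon lengths came from GENCODE M21 (GRCm38) and promoters from RefSeq (GRCm38.p6). The sources used here do not say whether equal replicate numbers pair the libraries, and the main fits had no replicate block. All 7 genes were named, with up to 8 other family genes of the largest counts, the tested genes of the partner and transcription factor lists, and the 3 genes nearest in course. The family genes with at most 4 counts, the cluster's other genes, Cd163, C1qa, C1qb, C1qc, Vsig4, Mpeg1, Lyz2, Mpo and the monocyte examples were named after their values were seen. Protein sequences were not used here. One gene first placed in the transcription factor list is not reported here.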

Additional observations from a re-analysis of the deposited data

How the results depend on the processing

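None of the 7 genes changed direction under any alternative in which it was compared. These were 13 for each of the 6 genes tested with all 6 libraries, 12 for each of them with 5, and 10 for Ms4a7, with 5 libraries only. With 6 libraries the log2 fold change of Ms4a6c came down to 0.0162 without WT replicate 2 and 0.0124 without WT replicate 3. With 6 libraries, edgeR called 0 genes and 0 of the Ms4a genes, DESeq2 called 813 and 1, and leaving out 1 library in turn gave 0 to 2513 genes and 0 to 5 of the Ms4a genes, the highest without WT replicate 1. With 5 libraries, edgeR called 2513 genes (1204 higher, 1309 lower) and 5 Ms4a genes. Library size alone gave 0 and 0 (3679 genes at an unadjusted p under 0.05) and moved the median over all genes tested to a log2 value of 0.44. DESeq2 called 4997 genes and limma-voom 1440, each with 5 Ms4a genes, and median-ratio size factors split the calls into 998 higher and 1432 lower, against 1066 and 847 with no filter. A replicate block gave 0 and 0 (2770 at an unadjusted p under 0.05). The deviations of same-numbered libraries correlated at 0.153, 0.00704 and 0.244, and not every library correlated best with its own number. Leaving out 1 library in turn gave 0 to 6210 genes and 0 to 6 Ms4a genes, 0 for each Hes1 KO library (3954, 4143 and 4048 genes at an unadjusted p under 0.05) and 6210 without WT replicate 3. The cause of these shifts was not tested. Depth limits WT replicate 1 most, and Ms4a7 and Ms4a8a rest on 2 and 3 counts in WT replicates 2 and 3.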

Other observations

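Ms4a1, the CD20 gene, and Cd79a, a chain of the B cell receptor complex, did not keep one ratio across the libraries. Ms4a1 had 0.287, 0.233 and 0.264 counts per count of Cd79a in the knockout, 0.191 (95% counting interval 0.174 to 0.210) in WT3 and 0.0591 (0.0444 to 0.0773) in WT2. Ms4a2, the IgE receptor chain, had 0.167, 0.101 and 0.121 counts per count of the basophil protease Prss34 in the knockout, and 0.174 and 0.145 in WT2 and WT3, so its groups overlapped.

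WT1 differed from the other libraries in some ratios between genes as well as in depth. It had 0 counts of Ms4a3 beside 132 of Elane, which allows a ratio of up to 0.0283, whereas the other 5 libraries had 0.229 to 0.343. It had 3 counts of Ms4a6b beside 101 of Ms4a6c, a ratio of 0.0297 (95% counting interval 0.00602 to 0.0893), against 0.133 to 0.341 in the others. Other ratios did not set WT1 apart. Its ratio of Ms4a4c to Ms4a6c, 0.0891 (0.0396 to 0.176), lay between those of WT2 (0.0745) and WT3 (0.105). For Ms4a6d per count of Ms4a6c its interval, 0.00602 to 0.0893, held the ratios of all the other libraries. These intervals cover counting error only.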
